A study of Mus musculus with 24 samples.

Results

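Gene expression in the prefrontal cortex (PFC) was compared between mice exposed to 30 days of chronic social defeat stress and unstressed controls, whatever the way in which the stressed animals coped. The comparison used the 12 saline-treated libraries of a series of 24, one library per male C57BL/6 mouse aged 10 to 12 weeks. The 4 control mice (106, 107, 109 and 117) were intact and had been housed singly for 5 days. The 8 stressed mice met an aggressive CD1 male every day and were sorted on day 29, by their behaviour, into 4 with a passive coping strategy (PS; mice 2, 28, 62 and 68) and 4 with an active one (AS; mice 8, 14, 40 and 44). All 12 mice received physiological saline intraperitoneally, the stressed mice 24 h after the last defeat, and tissue was taken 6 h later. The other 12 mice of the series, 4 controls, 4 PS and 4 AS, differed from these in receiving 2 mg/kg of dexamethasone (DEX), a synthetic glucocorticoid, and they serve below as separate animals for the same stress contrast and in a test of the interaction of stress with DEX. All 24 libraries were fitted together, so the DEX mice also shared in the estimate of the spread behind each saline call. Between defeats the stressed mice lived beside an aggressor behind a partition, whereas the controls lived alone, so housing and defeat cannot be told apart. The sampled block held secondary motor, anterior cingulate, orbital, prelimbic and infralimbic cortex together. In such bulk tissue, fewer cells of a type and less RNA per cell cannot be told apart.

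Social defeat is a model of depression-like states in which repeated attack by a dominant male activates the hypothalamic-pituitary-adrenal axis and keeps glucocorticoid levels raised. The PFC restrains this axis and controls the choice between passive and active responses to a threat, through pyramidal neurons that send long axons to subcortical targets and through local GABAergic interneurons that hold them in check. Glia share in the response: oligodendrocytes wrap the axons in myelin, astrocytes clear glutamate and microglia prune synapses.

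The controls had 21121869 to 24753489 reads on genes and the stressed mice 21493398 to 59439645 (exact permutation test, two-sided, p = 0.113). Of 16 pyramidal neuron genes 15 were in the table, and none of these was at 0 in a library. The same held for 8 of 15 genes of the striatum and 2 of 12 of the choroid plexus and ependyma, so this check does not tell cortex from the tissue around it. Control mouse 117 stood apart. Its summed count over 9 genes of the olfactory bulb and of migrating neuroblasts, a tissue that lies against the frontal cortex, was 11131 normalized counts, against 1687 to 1958 in the other 3 controls. PS mouse 2 had 4969 and AS mouse 14 had 5094, and the other 6 stressed libraries had 1498 to 2161. Of the 9 genes, 1 was at 0 in at least 1 saline library. Values without these 3 libraries, and without the 2 DEX libraries that were also high, are given where they bear on a result, and how much of each result such tissue accounts for was not tested.

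Stress was followed by small changes in many genes. Of 14074 genes, 210 (1.49%) passed an adjusted p under 0.1 between stressed and control mice with saline and are called DEGs here. Of these, 102 (0.725%) rose and 108 (0.767%) fell, and the median size of their log2 fold change was 0.33. The 8 stressed libraries lay wholly above or below the 4 controls in 149 of the 210 DEGs, 71 of them above and 78 below, and in 390 of all genes (2.77%), 1.34% above and 1.43% below. At an unadjusted p under 0.05 there were 2028 genes (14.4%). Protein-coding genes made up 155 of the DEGs, 78 that rose by a median of 0.31 and 77 that fell by a median of 0.26 on the log2 scale, and only 12 of the 155 changed by more than 0.5. Pseudogenes made up 41 of the DEGs and held nearly all the large falls. The median log2 fold change over all genes was 0.00 (50.2% of genes above 0), and the list medians below are to be read against it. Fold changes are differences of log2(normalized count + 1), which understates the change of genes with few reads.

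The call of a single gene leaned on single libraries. The number of DEGs was 54 without control mouse 106, 63 without 107, 73 without 109 and 158 without 117, and it was 99 without PS mouse 2, 129 without PS mouse 28 and 44 without both PS mice 2 and 62, the libraries with the most ribosomal bases in the quality table of the study. It was 41, of which 38 were among the 210, without the libraries high in olfactory bulb genes. All 210 genes kept the sign of their difference in that fit. When only the 12 saline libraries were fitted, 355 genes passed with a mean per group and 307 with a single mean for the stressed mice. The call held in each of the 12 fits that left out 1 of the compared libraries for 31 genes, of which 18 are pseudogenes. The 10 protein-coding genes among the 31 were Lpl, Etnk2, Kctd4, Tsn and Tmem237, which rose, and Limk1, Ppard, Zswim1, Rps27rt and Gm11273, which fell. Several genes named below for what they are known to do lie outside the rule for named genes and were chosen after their values were seen. The rule takes the largest rises and falls only from DEGs whose groups do not overlap. For those genes the lack of overlap follows from the choice.

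Among the genes that rose were enzymes that handle lipids. Lpl encodes lipoprotein lipase, which releases fatty acids from lipoproteins (chromosome 8, 68880491 to 68907448). It had 252, 304, 292 and 292 normalized counts in control mice 106, 107, 109 and 117, and 382 to 495 (median 434) in the 8 stressed mice. Every stressed library lay above every control, and the log2 fold change was 0.61 (SE 0.10, adjusted p = 0.00363). It was 0.66 without the libraries high in olfactory bulb genes (adjusted p = 0.0443). Etnk2, an ethanolamine kinase of phospholipid synthesis (chromosome 1, 133363572 to 133380336), had 404, 406, 391 and 346 in the controls and 462 to 642 (median 520.2) in the stressed mice, a log2 fold change of 0.46 (SE 0.09, adjusted p = 0.0248). Its groups did not overlap either. Chpt1, which completes phosphatidylcholine, rose by 0.28 and Sptssa, a small subunit of the enzyme that starts sphingolipid synthesis, by 0.40. The sterol carrier gene Scp2 rose by 0.27 and the acyl-CoA dehydrogenase gene Acadl by 0.28. Acad8, of the same enzyme family but not counted here as a lipid gene, rose by 0.30. Of 21 genes of lipid storage and lipoprotein handling, Lpl alone passed, 12 were above 0 and 9 below (median 0.05). Their log2 differences ran from -0.70 to 0.61, so the largest was a fall, which did not pass. In 1 of the 21 the stressed mice lay wholly above the controls and in 1 wholly below, against 1.34% and 1.43% of all genes. Apoe had a log2 difference of 0.24 (adjusted p = 0.333). Of 21 genes of cholesterol synthesis and uptake none passed (median 0.02). Chpt1 did not pass without control mouse 106 or 107 or PS mouse 2 or 28, Sptssa without control mouse 106 or 109, Acad8 without control mouse 107 or 109, and Scp2 and Acadl without control mouse 106, 107 or 109, PS mouse 2 or 28 or AS mouse 44 (adjusted p of these 5 genes up to 0.22).

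Other genes that rose encode regulators of the cell cycle, channels, transporters and secreted proteins. Kctd4, a member of a family of potassium-channel-like tetramerization domain proteins, had 4 close control values. These were 678, 687, 718 and 687 normalized counts, against 845 to 995 (median 885) in the stressed mice, and the log2 fold change was 0.38 (SE 0.06, adjusted p = 0.000631). Cdkn1c, the cyclin-dependent kinase inhibitor p57 (chromosome 7, 143458339 to 143461050), had 239, 221, 203 and 254 in the controls and 273 to 378 (median 286) in the stressed mice, a log2 fold change of 0.44 (SE 0.10, adjusted p = 0.052). In both genes the stressed mice were higher with no overlap. Ppic, which encodes cyclophilin C, a prolyl isomerase of the secretory pathway, had 35.1, 30.7, 50.9 and 38.7 against 58.5 to 80.6 (median 74.1) and the largest rise of a protein-coding gene among those without overlap, 0.87 (SE 0.21, adjusted p = 0.0572). Vip, the peptide of a class of disinhibitory interneurons, rose by 0.30 although its groups overlapped, with 1434, 1490.3, 1510.5 and 1203 against 1452 to 2037 (median 1739). Gabrg1, a GABA-A receptor subunit, had 459, 510.3, 529.5 and 574 against 592 to 773 (median 632), a log2 fold change of 0.32 (SE 0.09, adjusted p = 0.082). Other rises were those of the monocarboxylate transporter Slc16a1 (0.31), the calcium-binding protein S100a6 (0.43), the tetraspanin Cd63 (0.40), the matricellular Smoc2 (0.38) and Lipo3 (0.44), a member of the lipase family. Cdkn1c did not pass without control mouse 106, 107 or 109 or PS mouse 2 (adjusted p up to 0.172), Ppic without control mouse 106, 107 or 117 or PS mouse 2 (adjusted p up to 0.209), Vip without control mouse 106, 107, 109 or 117, PS mouse 2, 28 or 68 or AS mouse 8, 40 or 44 (adjusted p up to 0.23) and Gabrg1 without control mouse 106, 107 or 109, PS mouse 2 or 28 or AS mouse 14, 40 or 44 (adjusted p up to 0.265). Slc16a1 and Cd63 were among the 179 DEGs whose call was lost without at least 1 library, as were S100a6, Smoc2 and Lipo3.

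Several components of the protein-making and RNA-processing machinery were among the genes that rose. Of 82 cytosolic ribosomal protein genes, 5 rose and none fell, where 0.725% of all genes rose, and 78 of 82 had a log2 difference above 0 (median 0.17). Rpl39 (chromosome X, 37082520 to 37085402) had 724, 662, 623 and 835 normalized counts in the controls and 847 to 1333 (median 1007) in the stressed mice, a log2 fold change of 0.54 (SE 0.12, adjusted p = 0.0404). Rps27 had 1577, 1400.5, 1565 and 1799.7 against 1902 to 2684 (median 2254) and rose by 0.51. Rplp2, of the ribosomal stalk, had 1547, 1425, 1434 and 1759 against 1852 to 2382 (median 2219) and rose by 0.48. In each of these 3 genes the highest control was mouse 117, and no stressed library fell below it. Rps27a, which encodes a fusion of ubiquitin and a ribosomal protein, rose by 0.48 and Rpl22 by 0.29. Rpl4, the member with the highest mean, had a log2 difference of 0.06 (adjusted p = 0.724). The ribosomal protein genes together took 0.897% to 1.15% of the reads in the controls and 1.04% to 1.34% in the stressed mice, ranges that overlap. Of 31 initiation and elongation factor genes none passed (median 0.03), and Eef1a1 had a log2 difference of 0.03. The splicing genes Snrpe and Lsm5 rose by 0.45 and 0.52, Polr2k, a subunit shared by the RNA polymerases, by 0.47, and the proteasome genes Pomp and Psmd10 by 0.30 and 0.28. The calls of Snrpe, Lsm5, Polr2k, Pomp, Psmd10 and Rpl22 were lost without at least 1 library. Rpl39, Rplp2 and Rps27a did not pass without control mouse 106, 107 or 109, and Rps27 also not without PS mouse 28 or AS mouse 44 (adjusted p up to 0.209). Without the libraries high in olfactory bulb genes the median of the ribosomal list was 0.27, and Rpl39, Rplp2 and Rps27a passed.

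**Figure D1:**
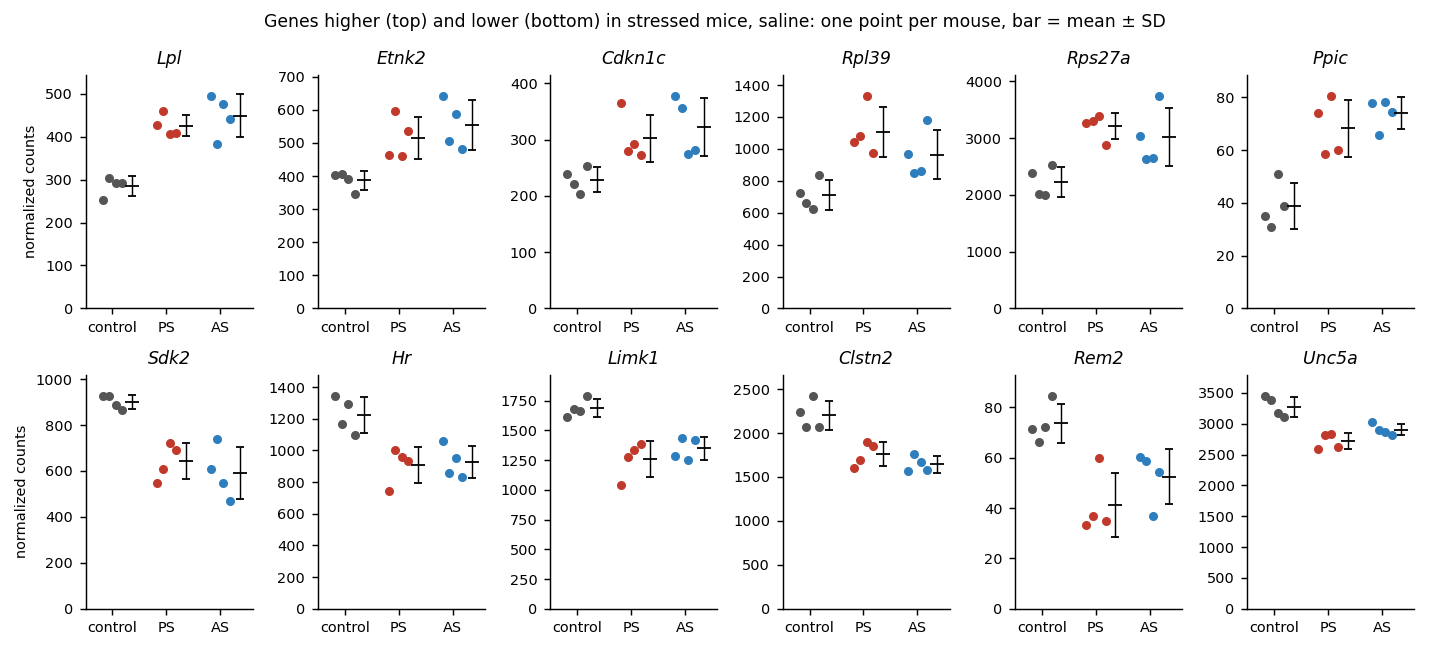
Normalized counts (y axis, linear and from 0) of 6 genes that rose (top) and 6 that fell (bottom) in the 4 control, 4 PS and 4 AS mice given saline, with one point per mouse and the mean ± SD of each group beside it. In each of the 12 genes the 8 stressed mice lie on one side of the 4 controls, as for Lpl, where the controls reach 304 and the stressed mice start at 382, and for Sdk2, where the controls start at 865 and the stressed mice reach 739. The genes with the largest changes were named only from DEGs without overlap, so this separation follows in part from the choice.

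Among the protein-coding genes that fell were Sdk2, Sdk1, Clstn2, Dscam and Unc5a, which act in adhesion and axon guidance, a grouping made after their values were seen. Sdk2, a sidekick adhesion molecule of synaptic layers (chromosome 11, 113776374 to 114067046), had 926, 926, 886 and 865 normalized counts in the controls and 469.6 to 739 (median 609) in the stressed mice, a log2 fold change of -0.56 (SE 0.12, adjusted p = 0.0373). Its relative Sdk1 had 424, 444, 508 and 437 against 303 to 404 (median 330.4) and fell by 0.39. Clstn2, a calsyntenin of the postsynaptic membrane (chromosome 9, 97444395 to 98033181), had 2238, 2071, 2420.2 and 2073 against 1562 to 1897 (median 1683), a log2 fold change of -0.37 (SE 0.09, adjusted p = 0.0549). The stressed mice lay below all controls in these 3 genes. Astn2, which acts in glia-guided neuronal migration, fell by 0.44, the adhesion molecule Dscam by 0.35, Cntnap1, which builds the junction of axon and myelin beside the node, by 0.31 and the planar polarity gene Prickle1 by 0.25 on the log2 scale. Of 33 axon guidance genes only the netrin receptor gene Unc5a fell, where 0.767% of all genes fell, and 28 of 33 were below 0 (median -0.13). Unc5a (chromosome 13, 54949411 to 55006018) had 3449, 3378, 3177 and 3108 in the controls and 2584 to 3028 (median 2824) in the stressed mice, a log2 fold change of -0.22 (SE 0.05, adjusted p = 0.0381). None of 51 protocadherin genes passed, and 41 were below 0 (median -0.13, and -0.20 without the libraries high in olfactory bulb genes), with Pcdh10, which has the highest mean of the list, at -0.22. Sulf2, which trims sulfate from heparan sulfate, had 3896, 3957, 4059 and 3562 against 2424 to 3440.5 (median 3118) and fell by 0.37, and Chst8, a sulfotransferase, fell by 0.47 on the log2 scale. Sdk2 did not pass without control mouse 106 or 107 (adjusted p up to 0.128), Unc5a without control mouse 106 or 107 (adjusted p up to 0.164), Clstn2 without control mouse 106, 107 or 109 or PS mouse 2 (adjusted p up to 0.18), Sulf2 without control mouse 106, 107 or 109 or PS mouse 2 (adjusted p up to 0.169), and Chst8 without control mouse 106, 109 or 117 (adjusted p up to 0.16). Sdk1 was at the threshold (adjusted p = 0.0999), and its call and those of Astn2, Dscam, Cntnap1 and Prickle1 were lost without at least 1 library.

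Other genes that fell act on the cytoskeleton, on channels and at synapses. Limk1, the kinase that inactivates cofilin and so stabilizes actin in dendritic spines (chromosome 5, 134656039 to 134688598), had 1616, 1679.6, 1666 and 1789 normalized counts in the controls and 1044 to 1437 (median 1306) in the stressed mice. The groups did not overlap, and its log2 fold change was -0.38 (SE 0.08, adjusted p = 0.0235). Iqsec1, an exchange factor for Arf6, fell by 0.30, the formin Inf2 by 0.30 and the guanine nucleotide exchange factors Arhgef11 and Arhgef18 by 0.22 and 0.21 on the log2 scale. Rem2, an activity-regulated GTPase that restrains calcium channels, had 71.5, 66.4, 72.4 and 84.5 against 33.1 to 60.2 (median 45.6), a log2 fold change of -0.68 (SE 0.17, adjusted p = 0.0581). Of 72 potassium channel subunit genes 2 fell, where 0.767% of all genes fell, none rose and 55 were below 0 (median -0.11). Kcnn2, a calcium-activated channel of the afterhyperpolarization, fell by 0.22 on the log2 scale, with overlap. Acetylcholinesterase (Ache) fell by 0.30 and Lynx1, a membrane protein that dampens nicotinic receptors, by 0.35. No gene passed among 28 sodium, calcium and HCN channel subunits, of which 27 were below 0 (median -0.14), or among 23 glutamate receptor subunits, of which 21 were (median -0.08). Of 14 GABA receptor subunits, Gabrg1 rose and 9 were below 0 (median -0.02). Of 27 genes of vesicle release none passed and 21 were below 0 (median -0.08), with Snap25 at 0.02. The serotonin, dopamine and adrenergic receptor list (21 genes, median -0.13) and the endocannabinoid list (8 genes, median 0.04) had no DEG, and the first of these medians was -0.03 without control mouse 106, -0.08 without control mouse 109 and -0.06 without PS mouse 2. That of the glutamate receptors was -0.05 without control mouse 109 and -0.14 without the libraries high in olfactory bulb genes. Rem2 did not pass without control mouse 106, 107, 109 or 117 or PS mouse 2 or 28 (adjusted p up to 0.164). Kcnn2 also lost its call without some of these libraries, as did Ache, Lynx1, Iqsec1, Inf2, Arhgef11 and Arhgef18.

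Some nuclear regulators and genes of autophagy also fell. Hr, a histone demethylase and corepressor of nuclear receptors (chromosome 14, 70552212 to 70573548), had 1343, 1168, 1294 and 1096 normalized counts in the controls and 747 to 1058 (median 943) in the stressed mice, a log2 fold change of -0.42 (SE 0.09, adjusted p = 0.0248). Ppard, a fatty-acid-sensing nuclear receptor, had 752, 738, 707 and 756 against 527 to 664 (median 617), a log2 fold change of -0.31 (SE 0.06, adjusted p = 0.0139). No stressed library reached the lowest control in either gene. The chromatin remodelling subunit Bicra fell by 0.26 and Bcl11a, a transcription factor of cortical projection neurons, by 0.21 on the log2 scale. Of 32 chromatin-modifying enzymes none passed, and 21 were below 0 (median -0.07, and -0.02 without AS mouse 44), and of 18 histone genes none passed (median -0.01). Ulk1, the kinase that starts autophagy, fell by 0.22, Atg9a, the scramblase of the early autophagosome, by 0.30 and Trp53inp2, a binder of autophagosome proteins, by 0.22. Within the list of the integrated stress response and autophagy, Ulk1 was the only DEG of 22 and the median was 0.00. Eme2, a subunit of a DNA repair nuclease, fell by 0.38 (adjusted p = 0.0404) and Pip5kl1, of the phosphoinositide kinase family, by 0.42 (adjusted p = 0.0778). Eme2 had 262, 271, 309 and 247 against 158 to 237 (median 215), and Pip5kl1 had 196, 211, 192 and 171 against 122 to 157 (median 145). Neither overlapped, but both calls were lost without control mouse 106, 107 or 109. Of 21 genes of PI3K, mTOR and FoxO signalling none passed and 19 were below 0 (median -0.05). Hr did not pass without control mouse 106 (adjusted p up to 0.126), and Ulk1 without control mouse 106, 107 or 109, PS mouse 2, 28 or 62 or AS mouse 44 (adjusted p up to 0.24). Ppard passed in all 12 fits that left out a compared library, but not without all libraries high in olfactory bulb genes (-0.29, adjusted p = 0.15). Bicra, Bcl11a, Atg9a and Trp53inp2 lost their calls without at least 1 library.

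The largest differences were in copies of other genes. A processed pseudogene arises when an mRNA is copied back into the genome, and ribosomal protein genes, whose mRNAs are abundant, have left many. Reads of such a copy and of its parent can be assigned to either where their sequences match, so that the counts of these genes are uncertain, and how the counting treated reads that fit several places is not given in the sources used here. Of 401 pseudogenes in the table, 41 were DEGs (10.2%), 13 that rose and 28 that fell. Each of the 41, and the pseudogene-like coding genes Rps27rt and Rpl9-ps6, was aligned to the protein-coding or mitochondrial transcript with which it shares the most runs of 20 letters. The 30 that fell had a median identity of 99.5% with these parents, and the parents of 25 of them were ribosomal protein genes, with 2 more mitochondrially encoded. The following stretches of 60 coding bases (GENCODE vM21 transcripts, GRCm38, 5′ to 3′) show how little separates 4 of the copies that fell from their parents. Letters that differ within a pair are in capitals. They come from Rps12-ps9 (chromosome 8, 123206623 to 123207021) and Rps12 (chromosome 10, 23785183 to 23787275), Gm13339 (chromosome 2, 22590024 to 22590533) and the mitochondrial mt-Nd2 (chromosome M, 3914 to 4951), Rpl36-ps2 (chromosome 11, 76601319 to 76601629) and Rpl36 (chromosome 17, 56613416 to 56614243), and Rps27rt (chromosome 9, 114982366 to 114982739) and Rps27 (chromosome 3, 90212522 to 90213651), all read on the strand of the gene.
Rps12-ps9: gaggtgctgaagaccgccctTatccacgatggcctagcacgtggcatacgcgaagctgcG
Rps12: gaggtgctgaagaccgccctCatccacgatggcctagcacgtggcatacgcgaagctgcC
Gm13339: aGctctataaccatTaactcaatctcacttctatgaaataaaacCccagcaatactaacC
mt-Nd2: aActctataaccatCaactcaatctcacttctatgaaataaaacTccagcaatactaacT
Rpl36-ps2: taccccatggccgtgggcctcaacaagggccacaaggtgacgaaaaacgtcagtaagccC
Rpl36: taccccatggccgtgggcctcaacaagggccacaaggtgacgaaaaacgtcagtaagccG
Rps27rt: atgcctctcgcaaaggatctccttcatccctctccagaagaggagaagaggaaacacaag
Rps27: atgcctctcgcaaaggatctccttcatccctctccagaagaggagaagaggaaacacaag

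In these stretches Rps12-ps9 differed from Rps12 at 2 of 60 bases, Gm13339 from mt-Nd2 at 4, Rpl36-ps2 from Rpl36 at 1 and Rps27rt from Rps27 at 0. Rps12-ps9 had 40.5, 34.4, 45.3 and 69.3 normalized counts in the controls, 0, 2.34, 1.28 and 4.20 in the PS mice and 9.45, 5.96, 12.3 and 21.0 in the AS mice, a log2 fold change of -3.09 (SE 0.42, adjusted p = 0.000201). Gm13339 had 355, 519, 1026 and 723 in the controls and 48.6 to 189 (median 67.9) in the stressed mice, a log2 fold change of -2.97 (SE 0.37, adjusted p = 6.38e-05). Rps27rt had 78.3, 76.2, 206 and 103 against 15.4 to 39.4 (median 28.5), a log2 fold change of -1.95 (SE 0.27, adjusted p = 0.000377). In each of these the controls were high and did not overlap with any stressed library. The log2 fold change was -3.08 for Rpl19-ps7, -2.91 for Rpl17-ps8 and -2.81 for Rpl36-ps2. Their stressed means were 5.24, 4.10 and 1.97 normalized counts, where 3 reads came to 1.40 to 3.84 in the stressed libraries. The sizes of these falls, and that of Rps12-ps9 in the PS mice, thus rest on few reads. Of the 30 genes that fell, 27 had a parent above 0 (median over the 30 pairs 0.16). Some share a parent, so that there are 27 distinct parents, of which only Rps27 was a DEG, which rose by 0.51. For comparison, 78 of all 82 cytosolic ribosomal protein genes were above 0 (median 0.17). Rps12 itself had a log2 difference of 0.21 (adjusted p = 0.413) and mt-Nd2 one of 0.15 (adjusted p = 0.593). Summed over the 28 pseudogenes that fell, the controls had 71.3 to 163 CPM (counts scaled to the reads on genes of the library) and the stressed mice 23.4 to 46.1. The 28 were chosen for being high in these 4 controls, so the gap between these groups follows from the choice, which also favours the controls against any other library. The 12 DEX libraries, controls included, had 19.1 to 56.5. All pseudogenes together took 0.374% to 0.443% of the reads in the controls and 0.362% to 0.480% in the stressed mice. The 13 pseudogenes that rose had a median identity of 99.7% with their parents, of which 3 encode ribosomal proteins. All 13 of these parents were above 0 as well (median 0.115), so most parents lay above 0 whether the copy rose or fell. Gm9800, a copy of Ptma, had 140.4, 136, 154 and 173 against 163 to 271 (median 233) and rose by 0.58, Oaz1-ps, a copy of Oaz1, rose by 0.58, Gm10095 by 0.52 and Gm4332, a copy of Rps20, by 1.88. Gm4332 averaged 2.84 normalized counts in the controls, where 3 reads came to 3.39 to 4.05, and 10.1 in the stressed mice. The size of its change thus rests on few reads. Over the 42 ribosomal protein pseudogenes recognized by symbol, 12 fell and 1, Rpl17-ps10, rose (median -0.38, and -0.23 without control mouse 117), and over all 82 pseudogenes by symbol the median was 0.01. Gm9800 did not pass without control mouse 106 or 107, Oaz1-ps without control mouse 107 or 109, Gm10095 without control mouse 106 or 117 and Gm4332 without control mouse 109, and Rps12-ps9, Gm13339, Rps27rt, Rpl19-ps7, Rpl17-ps8 and Rpl36-ps2 passed in all 12 fits.

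**Figure D2:**
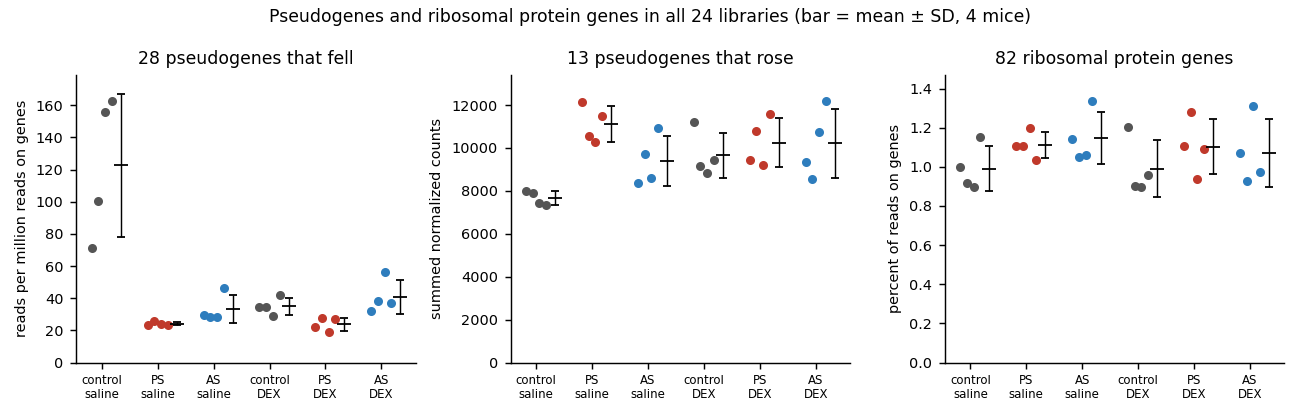
CPM, counts scaled to the reads on genes of the library, over the 28 pseudogenes that fell (left), summed normalized counts of the 13 pseudogenes that rose (middle) and percent of reads on 82 ribosomal protein genes (right), in all 24 libraries, with one point per mouse and the mean ± SD of 4 mice. The 4 saline controls, which the choice of the 28 genes places above the saline stressed mice, lie at 71.3 to 163 in the left panel and the 20 other libraries at 19.1 to 56.5, while the groups overlap in the right panel. The middle panel likewise shows genes chosen for their rise with saline.

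Few short RNAs passed in these libraries, which were made from poly(A) RNA. Of 236 miRNA genes 1 was a DEG (0.424%), of 117 snoRNA genes 0 and of 59 snRNA genes 2 (3.39%), against 1.49% of all genes. Of 31 mitochondrially encoded genes 2 rose, both for transfer RNAs, where 0.725% of all genes rose, and 25 were above 0 (median 0.15). That median was 0.09 without PS mouse 2, 0.07 without the libraries high in olfactory bulb genes, -0.14 with DEX and, with trends over transcript length and GC content removed, -0.05, when 2 members rose and 2 fell. The glutamate tRNA gene mt-Te had 6.75, 14.8, 7.92 and 15.3 normalized counts in the controls and 16.5 to 38.2 (median 28.4) in the stressed mice, a log2 fold change of 1.25 (SE 0.24, adjusted p = 0.0176). The proline tRNA gene mt-Tp had 60.7, 52.9, 67.9 and 66.9 against 72.0 to 159 (median 122) and rose by 0.89. Neither gene had an overlap between the groups. mt-Co1, the mitochondrial gene with the highest mean, had a log2 difference of 0.07 (adjusted p = 0.834), and 81 nuclear subunits of the respiratory chain had a median of 0.04 and no DEG. The snRNA gene Gm25982 rose by 1.84 and passed in all 12 fits, at 5.15 to 15.3 normalized counts in the stressed mice and 0 to 5.40 in the controls. The size of this rise rests on few reads. The snRNA gene Gm25112 had 0 reads in the 4 controls and at most 4.68 normalized counts in the stressed mice, close to the floor of 3 reads per library, and no fold is given for it. The miRNA gene Gm24270 had a log2 fold change of 1.85 (SE 0.50, adjusted p = 0.0864), with 99.9, 203, 98.4 and 179.6 in the controls. It had 3449 in PS mouse 2 and 1889 in PS mouse 62, and 116 to 417 in the 6 other stressed mice. The lncRNA genes Gm4876 and A330041J22Rik rose by 0.74 and 0.62 without overlap, Gm4876 with 59.4, 67.6, 60.0 and 61.0 in the controls and 89.8 to 133 (median 100.2) in the stressed mice. mt-Te did not pass without control mouse 106, mt-Tp without control mouse 106 or 107, A330041J22Rik without control mouse 109 or 117, Gm25112 without control mouse 106, 107 or 109 and Gm24270 without 9 of the 12 libraries in turn, among them each control and PS mice 2 and 62.

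The genes best known from acute stress showed no call. Of 20 genes that glucocorticoids induce, 10 were above and 10 below 0 (median -0.01) and none was a DEG. Their log2 differences ran from -0.70 to 0.66, so single members lay far from the median without passing. Fkbp5, the cochaperone that limits the glucocorticoid receptor, had 773, 761, 888 and 762 normalized counts in the controls and 774 to 1088 (median 849) in the stressed mice, a log2 difference of 0.15 (SE 0.09, adjusted p = 0.476). Nr3c1, the receptor itself, had 2972, 3336, 3271 and 2867 against 2666 to 3158 (median 2943), a difference of -0.08 (SE 0.09, adjusted p = 0.702). Both genes overlapped between the groups. The list of corticosteroid receptors and chaperones (9 genes) had a median of -0.04. Crh, the hypothalamic releasing peptide that cortical interneurons also make, had 190.3, 175, 186 and 157 against 123 to 207 (median 185), a difference of -0.02 (SE 0.15, adjusted p = 0.97), and 12 of 18 genes of stress neuropeptide systems were in the table with a median of 0.01. Bdnf, the neurotrophin of activity-dependent plasticity, had 1042, 1027, 963 and 675 against 913 to 1162 (median 987), a difference of 0.16 (SE 0.11, adjusted p = 0.521), and the 6 neurotrophin genes tested had a median of -0.06. Of 18 immediate early genes, 16 were below 0 (median -0.11, and -0.07 without control mouse 106 and -0.05 without AS mouse 40), and Fos had 246, 205, 183 and 158 against 91.2 to 266 (median 209.8), a difference of -0.19 (SE 0.27, adjusted p = 0.786). Egr3, the immediate early gene with the highest mean, had a difference of 0.19 (adjusted p = 0.517), on the other side of 0 from most of its list. The heat shock list (19 genes, median 0.03) and the circadian clock list (17 genes, median -0.02) had no DEG either. The smallest log2 fold change among the 210 DEGs was 0.17 in size, so a difference as small as these medians was not detectable for a single gene.

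Markers of several cell types lay on one side of 0, with few single genes past the threshold. All 17 oligodendrocyte and myelin genes tested were below 0 (median -0.30) and none was a DEG. Their sum was 34336 to 38647 normalized counts in control mice 106, 107 and 109, 53330.0 in control mouse 117 and 22739 to 39902 in the stressed mice. Mbp, a main protein of myelin, had a log2 difference of -0.43 (SE 0.15, adjusted p = 0.189). Without control mouse 117, which held the most olfactory bulb transcripts, the median was -0.18, and without all libraries high in them it was -0.16 with 1 of 17 above 0. Oligodendrocyte precursor genes had a median of -0.09 (7 of 9 below 0), which lay between -0.14 and -0.05 as single libraries were left out. Of 16 genes of GABAergic interneurons, Vip rose and 15 were below 0 (median -0.13, and -0.01 without control mouse 117, whose sum was the highest of the controls). Pyramidal neuron genes had a median of -0.11 (11 of 15 below 0), which was -0.06 without control mouse 106, with Camk2a at 0.11 (adjusted p = 0.71). Astrocyte genes had a median of 0.13 (11 of 12 above 0) and no DEG. Striatal genes (8 of 15 in the table) had a median of -0.07. The olfactory bulb list itself had a median of -0.23, which was 0.82 without control mouse 117 and 0.12 without all libraries high in it. Its part in the neuronal and myelin differences was not tested.

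Genes of microglia and of the meninges lay on the other side. All 15 microglia genes were above 0 (median 0.18), and 1 of them, not named here, rose, where 0.725% of all genes rose. C1qb, the complement subunit with the highest mean in its list, had 1008, 884, 906 and 985 against 1005 to 1149.9 (median 1088), a difference of 0.19 (SE 0.10, adjusted p = 0.369). Adgre1, which encodes the macrophage marker F4/80 and is not a member of this list, rose by 0.40 with no overlap. The summed microglia genes were 12666 to 14091 in the controls and 13706 to 15644 in the stressed mice, and the median stayed between 0.16 and 0.22 as single libraries were left out. The complement list had a median of 0.17 (8 of 9 above 0), that of antigen presentation 0.20 (10 of 10) and that of the interferon response 0.23 (14 of 15), with no DEG in the 3 lists. Leptomeningeal fibroblast genes, which mark the membrane on the surface of the brain, were above 0 in 11 of 11 (median 0.47), with no DEG, Fmod at 0.50 (adjusted p = 0.453) and a sum of 4324 to 6548 in the controls and 4012 to 9253 in the stressed mice. Their median was 0.26 without PS mice 2 and 62 and 0.29 without the libraries high in olfactory bulb genes, and that of the complement list was 0.11 without PS mice 2 and 62. Collagens had a median of 0.07, endothelial genes 0.02, mural genes 0.08, the 5 blood genes -0.04 and the 2 choroid plexus and ependyma genes -0.10, all without a DEG, and the endothelial, mural and blood medians and that of the choroid plexus and ependyma changed sign as single libraries were left out. Adgre1 did not pass without control mouse 106 or 107 or PS mouse 2 (adjusted p up to 0.209).

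**Figure D3:**
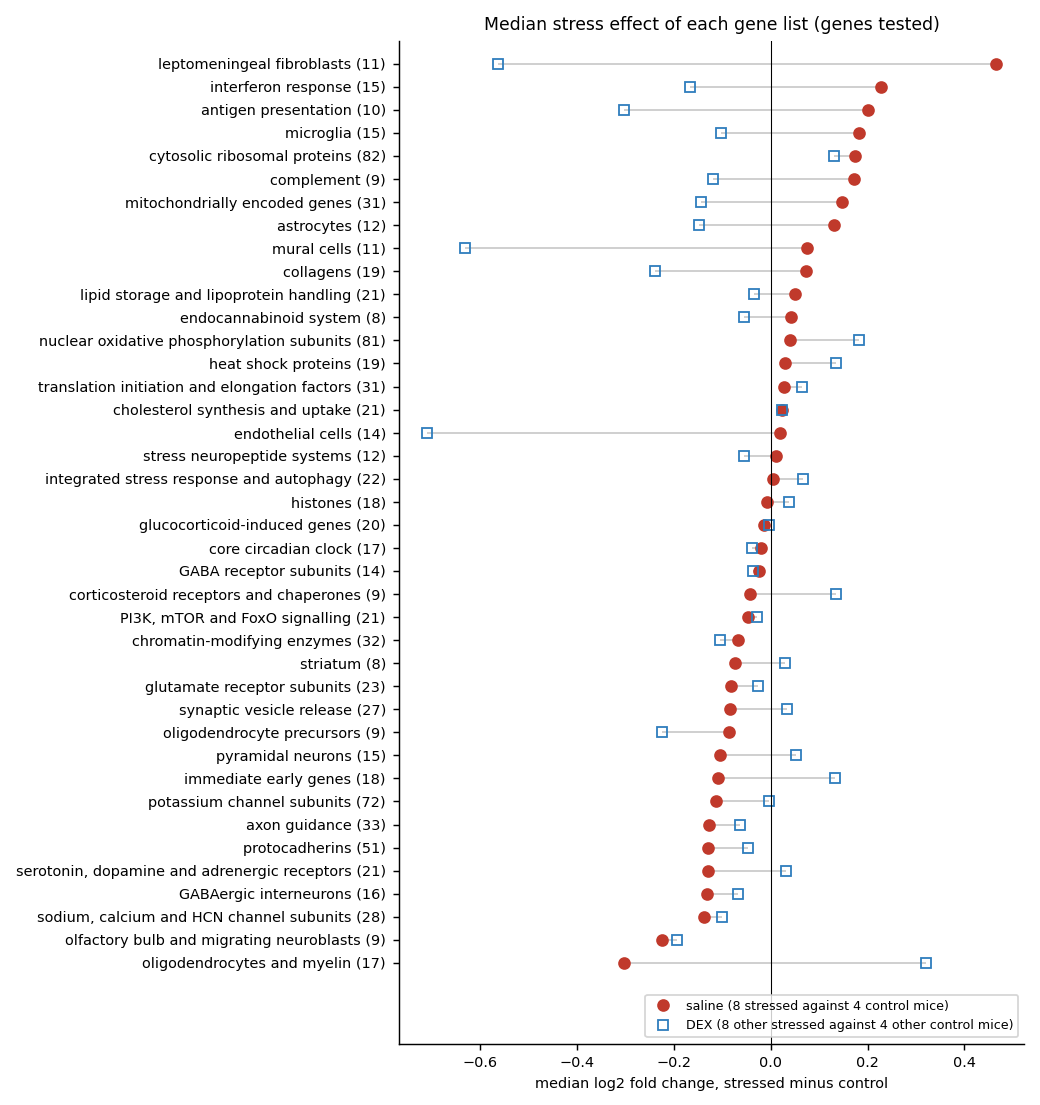
Median log2 fold change, stressed minus control (x axis), of each list with at least 8 genes tested (numbers in parentheses), for saline (filled circles, 8 against 4 mice) and for DEX (open squares, 8 other against 4 other mice). The lists of pseudogenes are not drawn. With saline the medians run from -0.30 for oligodendrocytes and myelin to 0.47 for leptomeningeal fibroblasts, and with DEX the same lists lie at 0.32 and -0.56.

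Whether the average hides a difference between coping styles was asked by comparing AS with PS mice directly. With limma and with edgeR 0 genes passed, against 671 (4.77%) at an unadjusted p under 0.05 in limma, and a DESeq2 Wald test called 11. Among the 210 DEGs, 34 (16.2%) had an unadjusted p under 0.05 for AS minus PS, and in 31 of these the difference from the controls was larger in PS. Bicra had the lowest p of the 210 (unadjusted p = 2.79e-05, adjusted p = 0.206), with log2 differences from the controls of -0.44 in PS and -0.08 in AS. Its counts were 669.8 ± 24.8 in PS, 860.5 ± 89.0 in AS and 909 ± 54.7 in the controls (mean ± SD, n = 4 each). Rps12-ps9 had -4.22 in PS and -1.95 in AS, Gm14586 -3.13 and -0.82, Rpl9-ps6 -1.39 and -0.32, and Gm6793 0.85 and 0.25. The size for Rps12-ps9 in PS rests on few reads. Lpl had 0.58 and 0.65 (AS minus PS 0.07, SE 0.12), Sdk2 -0.49 and -0.63, and Limk1 -0.43 and -0.32. The myelin list had medians of -0.19 in PS and -0.41 in AS and the microglia list 0.16 and 0.21, both against the same 4 controls.

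The 12 mice given DEX offer the same contrast in animals that share no library with the saline mice. Between stressed and control mice with DEX, 361 genes passed (2.57%), 120 higher (0.853%) and 241 lower (1.71%). That count was 2 without DEX control mouse 122, 851 without DEX control mouse 112 and 4 when the 12 DEX libraries were fitted alone. Of the 210 saline DEGs, 13 were among them, which is 6.19% of the saline and 3.60% of the DEX list, and 12 of the 13 had the same direction. Of the genes that rose with saline 72.5% were also above 0 with DEX, where 49.7% of all genes were, against 53.4% of all genes above 0 with saline, and of those that fell 62.0% were also below 0, against 54.0%. The median of the genes that rose was 0.35 with saline and 0.09 with DEX, and that of the genes that fell -0.31 and -0.03. Called in both were the pseudogenes Gm6204 (0.86 with saline, 1.08 with DEX), Gm13577 (0.82 and 0.65), Gm9800 (0.58 and 0.55), Gm6793 (0.55 and 0.47), Gm10095 (0.52 and 0.49), Cbx3-ps6 (0.48 and 0.46) and Gm10052 (0.41 and 0.56), and also Eapp, Mir22hg, Zfp335, Ulk1 and Trp53inp2. Mybpc1, a myosin-binding protein gene, went opposite ways, -0.30 with saline and 0.39 with DEX (adjusted p = 0.0929 and 0.0452). The saline control mice had 217, 210.3, 221 and 236 normalized counts of it and the saline stressed mice 159 to 202 (median 179), and with DEX the controls had 172 to 188 and the stressed mice 195 to 266. Lpl had a log2 difference of 0.17 with DEX (adjusted p = 0.411), Etnk2 -0.04, Sdk2 -0.07, Limk1 0.09 and Rps12-ps9 -0.71.

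The difference between the stress effects with DEX and with saline was tested as an interaction. It passed in 142 of 14074 genes (1.01%, 0.483% above 0 and 0.526% below) and in 40 of the 210 DEGs (19.0%), 22 of them protein-coding. Both tests use the same saline libraries, so the 40 genes were chosen in part by the values that the interaction uses. It was -1.57 for Ppic (adjusted p = 0.0381), 0.47 for Limk1 (adjusted p = 0.0762), -0.50 for Etnk2 (adjusted p = 0.0998) and 0.75 for Astn2 (adjusted p = 0.075), on the log2 scale. The 28 pseudogenes that fell had a median of -2.01 with saline and -0.12 with DEX, where the controls had 28.8 to 41.7 CPM and the stressed mice 19.1 to 56.5, and the 13 that rose had 0.55 and 0.49. Ribosomal protein genes had medians of 0.17 and 0.13, with 78 of 82 above 0 with DEX. For myelin genes the medians were -0.30 and 0.32 (17 of 17 above 0 with DEX), for microglia 0.18 and -0.10, and for leptomeningeal fibroblasts 0.47 and -0.56. Endothelial genes, at 0.02 with saline, were at -0.71 with DEX, where 11 of 14 were called lower, against 1.71% of all genes. When the DEX libraries were fitted alone, 4 genes passed in all, so most of these 11 calls did not hold there. Without the libraries high in olfactory bulb genes, 2 genes passed between stressed and control mice with DEX and 1 in the interaction, and without control mouse 117 alone the interaction had 4.

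**Figure D4:**
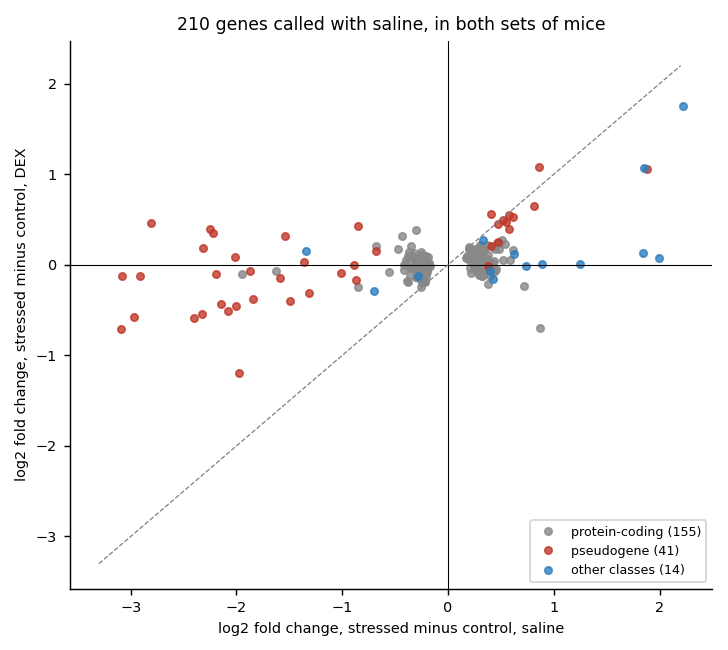
Log2 fold change, stressed minus control, with saline (x axis) and with DEX (y axis) for the 210 genes called with saline, in grey for 155 protein-coding genes, red for 41 pseudogenes and blue for 14 genes of other classes, with the dashed line at equal values. The pseudogenes that fell spread along the x axis near 0 on the y axis (median -2.01 with saline, -0.12 with DEX), whereas those that rose lie near the line (0.55 and 0.49).

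The protein-coding DEGs also differed in the make-up of their transcripts. The longest annotated transcript had a median of 2542 bases in the 78 genes that rose, 4472 in the 77 that fell and 3486 in all 12133 protein-coding genes with a transcript in the annotation, and the median GC content was 46.8%, 56.7% and 50.5%. Across the 12133 genes (genes do not replicate one another), the log2 difference was lower at greater transcript length (Spearman correlation -0.33) and at higher GC content (-0.18). Among 10 bins of equal size, in the bin with the shortest transcripts the median log2 difference was 0.07 with 17 genes that rose and 3 that fell, and in the bin with the longest it was -0.08 with 1 and 9. By GC content, 17 genes of the lowest bin rose and 0 fell, whereas 2 rose and 19 fell in the highest. Against the same controls the correlation with GC content was -0.37 in PS and 0.03 in AS, and it was 0.52 for AS minus PS, a contrast without controls. The relation with length was -0.18 in PS, -0.42 in AS and -0.32 between stressed and control mice given DEX. It leaned on single libraries. The median of the shortest bin minus that of the longest, on the log2 scale relative to each gene's mean over the 24 libraries, was 0.51 in AS mouse 44 and -0.06 to 0.03 in the other 3 AS mice, and among the stressed DEX mice it was 0.62 in mouse 60, 0.42 in mouse 34 and -0.24 to 0.04 in the other 6. Without mouse 44 the correlation with length was -0.18 in AS and -0.20 in the pooled stressed mice, which was -0.18 without control mouse 109, and with DEX it was -0.16 without mouse 60 and -0.51 without control mouse 101. The pooled correlation with GC content was -0.06 without control mouse 106, -0.12 without 117 and -0.31 without 109. With each library's trends over length and GC content removed, 349 genes passed, 144 of them among the 210, and all 210 kept their sign. Lpl then had 0.61 (adjusted p = 0.00343), Sdk2 -0.40 (0.0297), Limk1 -0.34 (0.0501) and Rpl39 0.44 (0.0106), and the ribosomal protein list a median of 0.13 with 16 genes that rose. Medians of several lists below 0 moved toward 0 with this step, from -0.13 to -0.07 for axon guidance, -0.14 to -0.07 for sodium, calcium and HCN channels, -0.11 to -0.07 for potassium channels, -0.08 to -0.04 for vesicle release and -0.07 to 0.00 for chromatin-modifying enzymes. The median of the 81 nuclear respiratory chain genes went from 0.04 to -0.03, that of microglia from 0.18 to 0.16, that of protocadherins was -0.13 both times and that of myelin went from -0.30 to -0.32.

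**Figure D5:**
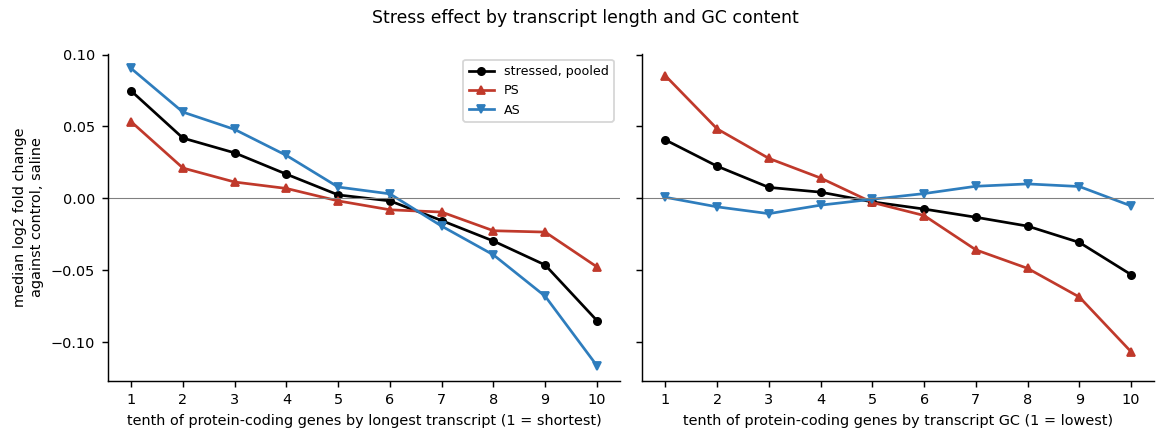
Median log2 fold change against the controls with saline (y axis) in 10 equal bins of the protein-coding genes by longest transcript (left, 1 = shortest) and by transcript GC content (right, 1 = lowest), for the pooled stressed mice (black circles), PS (red triangles) and AS (blue triangles). The pooled median runs from 0.07 to -0.08 over length, and over GC content the PS line runs from 0.09 to -0.11 while the AS line stays between -0.01 and 0.01.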

How the data were processed

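RNA-seq was made from poly(A) RNA of the PFC of 24 mice, 6 groups of 4. The authors trimmed paired-end, strand-specific reads with fastp 0.20.1, aligned them to mm10 with HISAT2 2.2.1, counted them per gene with featureCounts (Subread 2.0) and divided the counts by DESeq2 1.36.0 size factors. These normalized counts, one signal value per gene and mouse, are what the authors deposited. Their tables of fold changes and p-values were not used. Dividing each column by its smallest step gave whole reads for 100% of values, within 0.01 read, and from them the depth of 21121869 to 59439645 reads per library.

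Groups came from the sample labels, and replicates are different mice. The labels dep1 and dep2 of the stressed mice were read as PS and AS, which they do not spell out. limma 3.58.1 (R 4.3.3, eBayes with trend) was fitted to log2(normalized count + 1) of 14074 genes in all 24 libraries, with a mean per group. The stressed groups were averaged with equal weight, and a gene was called where its p, adjusted by Benjamini-Hochberg, was under 0.1. All adjusted p-values in the text are from this fit unless another tool is named. On simulated counts for the saline stress contrast, with 200 of 14074 genes changed, limma recovered 95.5% of them, edgeR 94.5% and DESeq2 96.0%, and 12.0%, 11.3% and 16.5% of their calls were unchanged genes. limma recovered 86.2% of the genes changed by 0.5 on the log2 scale, the smallest size used. The median size among the DEGs was 0.33. At sizes under 0.5, recovery and the share of unchanged genes among the calls were not tested. The simulation drew each gene independently, around a mean that all 24 libraries shared except for the changes put in. It held no trends over transcript length or GC content and no libraries high in olfactory bulb genes, unlike the data. Its share of unchanged genes is thus not an estimate for the DEGs.

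Some genes are not reported here. The gene groups and lists were chosen with earlier results of these data known. Lists are described by counts and medians and carry no test. Genes were named by rule: of the called genes without overlap, the 12 largest rises and falls among those with a gene name and the 5 largest rises and falls among the others, called members of each list (up to 4) with the member of highest mean, Nr3c1, Fkbp5, Bdnf, Fos and Crh, up to 5 called genes by the AS against PS test, and called genes also called with DEX (up to 6 in the same and 4 in the opposite direction). Coordinates are GRCm38, and transcripts are those of GENCODE vM21, in which 14061 genes had a match. Alternatives were a pseudocount of 8, filters at a mean of 100 and at 10 reads, quantile and TMM scaling, library size as a covariate, edgeR 4.0.16 and DESeq2 1.42.0 on the recovered reads, thinned reads, other sets of libraries and each library left out in turn. Further alternatives were chosen after seeing the data: leaving out the 5 libraries whose olfactory bulb genes summed to over 1.5 times the median, and removing each library's trends over transcript length and GC content.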

Additional observations from a re-analysis of the deposited data

Results flagged for a closer look

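The stress effect on 15 of the 95 named genes differed between DEX and saline by limma's test of the interaction itself, which 1.01% of all genes passed. Many of these genes were named for their saline difference, which also enters the interaction, so the choice favours a pass. Without control mouse 117 the interaction had 4 genes in all, and without the libraries high in olfactory bulb genes it had 1. The difference, DEX minus saline on the log2 scale, was 2.38 for Rps12-ps9 (adjusted p = 0.087), 2.95 for Rpl19-ps7 (adjusted p = 0.0235), 2.39 for Gm13339 (adjusted p = 0.075), 2.79 for Rpl17-ps8 (adjusted p = 0.03), 3.27 for Rpl36-ps2 (adjusted p = 0.0366) and 1.85 for Rps27rt (adjusted p = 0.0688) among copies of ribosomal and mitochondrial genes. It was 0.65 for Chst8 (adjusted p = 0.0847), 0.75 for Astn2 (adjusted p = 0.075), 0.47 for Limk1 (adjusted p = 0.0762), 0.52 for Sulf2 (adjusted p = 0.0847) and 0.69 for Mybpc1 (adjusted p = 0.0159) among the other genes that had fallen with saline, and -0.61 for Slc2a1 (adjusted p = 0.0998), -0.50 for Etnk2 (adjusted p = 0.0998), -0.76 for Gm4876 (adjusted p = 0.0847) and -1.57 for Ppic (adjusted p = 0.0381) among genes that were higher with saline. Rps12-ps9, Rpl19-ps7, Rpl17-ps8 and Rpl36-ps2 had few reads in the saline stressed mice, on which the sizes given for them rest.

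In 14 of 190 groups of saline mice tested over the named genes, the highest or the lowest library lay far from the rest in normalized counts, where chance alone gives about 1 in 20 groups. Gm13339 had 189 in stressed mouse 44 and 48.6 to 100.1 in the other 7 stressed mice. Limk1 had 1044 in stressed mouse 2 and 1255 to 1437 in the other 7 stressed mice. Kcnn2 had 952 in control mouse 107 and 1007 to 1014 in the other 3 controls. Atp5b had 29120.0 in stressed mouse 44 and 22357 to 24744 in the other 7 stressed mice. Ntrk2 had 14273 in stressed mouse 44 and 17512 to 18534 in the other 7 stressed mice. Ehmt2 had 7326 in stressed mouse 8 and 5494 to 6355 in the other 7 stressed mice. Stat2 had 875 in stressed mouse 40 and 743 to 805 in the other 7 stressed mice. Ppp1r1b had 2546 in control mouse 106 and 1988 to 2079.7 in the other 3 controls. Rpl4 had 13119 in stressed mouse 44 and 10815 to 11530.0 in the other 7 stressed mice. Rarres2 had 110.0 in stressed mouse 62 and 59.9 to 82.7 in the other 7 stressed mice. Fkbp5 had 888 in control mouse 109 and 761 to 773 in the other 3 controls. Mgll had 11452 in control mouse 106 and 9313 to 9645 in the other 3 controls. Cbx3-ps6 had 92.7 in control mouse 117 and 50.9 to 57.8 in the other 3 controls. Gm4332 had 14.1 in stressed mouse 62 and 8.75 to 10.6 in the other 7 stressed mice.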

How the results depend on the processing

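In each alternative fit other than those that left out a single library, the calls with saline that had a value kept their direction, but their number moved. It was 215 with a pseudocount of 8, 208 with TMM scaling, 195 with quantile normalization, 211 with edgeR's quasi-likelihood test on the recovered reads, 201 on reads thinned to equal depth, 155 when genes had to average 100 or more and 175 among genes with at least 10 reads in every library. It was 487 with DESeq2, 104 with log2 library size as a covariate, 44 without PS mice 2 and 62, 41 without the libraries high in olfactory bulb genes, 349 with GC and length trends removed, 355 when only the 12 compared libraries were fitted with a mean per group and 307 with 1 mean for all stressed mice. Higher calls were 48.6% of the 210, 34.1% without PS mice 2 and 62 and 41.5% without the libraries high in olfactory bulb genes. AS against PS gave 0 genes, 11 with DESeq2 and 2 with trends removed. Stress against control with DEX gave 361 genes, 689 with DESeq2, 4 with library size as a covariate, 4 with a mean per group in the 12 DEX libraries alone, 2 with 1 mean for all stressed mice, 2 without the libraries high in olfactory bulb genes and 1067 with trends removed. The interaction gave 142 genes, 62 and 87 under the filters on mean and on reads, 60 with quantile normalization, 94 with edgeR, 91 on thinned reads, 497 with DESeq2, 7 without PS mice 2 and 62, 1 without the libraries high in olfactory bulb genes and 1275 with trends removed. As single libraries were left out, the counts ran from 54 to 250 for stress with saline, 0 to 5 for AS against PS, 2 to 851 for stress with DEX and 4 to 835 for the interaction. The cause of these changes was not tested. Of the values of single named genes under all alternatives, 2039 kept side and direction, 335 lost the call, 1 gained it and 66 changed sign, the last in genes that were not DEGs. Under quantile normalization the log2 difference was 0.021 for Gabbr1, -0.18 for Snap25, -0.12 for Slc1a2, 0.00 for mt-Co1 and -0.067 for Camk2a. With log2 library size as a covariate it was 0.080 for Col4a2, 0.0091 for Hbb-bs, -0.015 for Gria2 and -0.0016 for Snap25. Without PS mice 2 and 62 it was 0.089 for Crh, 0.0037 for Gabbr1 and -0.010 for B2m. Without the libraries high in olfactory bulb genes it was 0.011 for Col4a2, 0.26 for Hbb-bs, -0.0098 for Gria2, -0.023 for Tef, -0.045 for Hmgcs1 and -0.056 for Slc1a2. With GC and length trends removed it was 0.010 for Ntrk2, 0.025 for Ehmt2, 0.087 for Col4a2, 0.049 for Gabbr1, -0.0035 for Snap25, -0.034 for Eef1a1, -0.0037 for Rgs5, -0.0083 for Rpl4, -0.059 for mt-Co1 and -0.060 for B2m. For Crh it was 0.0087 with edgeR, 0.0054 with DESeq2 and 0.0059 with edgeR on reads thinned to equal depth. As single libraries were left out, it ran from -0.27 to 0.028 for Dcx, from -0.10 to 0.015 for Col4a2, from -0.23 to 0.10 for Hbb-bs, from -0.071 to 0.065 for Crh, from -0.057 to 0.022 for Gabbr1, from -0.049 to 0.040 for Gria2, from -0.020 to 0.043 for Tef, from -0.0079 to 0.040 for Snap25, from -0.010 to 0.11 for Ppp1r1b, from -0.088 to 0.15 for Rgs5, from -0.015 to 0.10 for Hmgcs1 and from -0.040 to 0.12 for Slc1a2. Depth limits the genes with few reads, of which 12 were at 0 in all 4 saline controls. No paired analysis was possible because no mouse number recurs between groups and each library is a different animal.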
